A study of Mus musculus with 12 samples.

Results

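The genes described here are 10 amino acid carriers and carrier subunits of the kidney tubule, Slc3a1, Slc3a2, Slc7a9, Slc7a13, Slc7a7, Slc7a8, Slc6a19, Slc1a1, Slc36a2 and Slc1a5. They were taken from the deposited count table by symbol, and are 10 of its 39171 genes. Kidney RNA came from 12 males, aged up to 3 months, with 1 library per mouse. The groups were 4 sick and 4 healthy GNE M743T/M743T knock-in mice, with the M743T change on both copies of Gne, and 4 wild-type mice. Gne encodes the enzyme that opens sialic acid synthesis, and the sick and the healthy knock-in mice share 1 genotype and are set apart only by the phenotype the submitters recorded. The labels do not say what that phenotype was scored on, and they name no strain, litter or age of a single mouse.

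Filtered amino acids are taken back almost wholly by the proximal tubule. Carriers of the brush border bring them into the cell from the filtrate, and carriers of the basolateral membrane pass them on to the blood. Several of these carriers are dimers in which a light chain of the Slc7 family moves the amino acids and a heavy chain of the Slc3 family brings it to the membrane. The heavy chain rBAT, encoded by Slc3a1, serves the brush border, and the heavy chain 4F2hc (CD98), encoded by Slc3a2, serves the basolateral membrane and most other cells of the body. In people, loss of rBAT or of its partner b0,+AT, encoded by Slc7a9, causes cystinuria, loss of y+LAT1, encoded by Slc7a7, causes lysinuric protein intolerance, and loss of B0AT1, encoded by Slc6a19, causes Hartnup disorder.

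Total counts per library were 10605546 to 22633684 in sick, 18191087 to 21925419 in healthy knock-in and 13189478 to 19493856 in wild-type mice. Levels are CPM, counts scaled to library size, after TMM scaling, whose factors were 1.23 to 1.39 in sick, 0.804 to 0.933 in healthy knock-in and 0.839 to 0.901 in wild-type mice. Wild-type mouse 2 stood apart on the second principal component, at -84.7, against 1.34 to 18.3 in the other wild-type mice and -38.9 to 28.4 over all other libraries, and its values are given where a result rests on them. Differences were tested with edgeR's quasi-likelihood test over 15589 genes, and a gene is called where the adjusted p is below 0.05. The labels give no batch, date or litter, so the p-values measure the spread between these mice and their libraries.

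In sick against wild-type kidneys all 10 genes passed the test, 8 of them lower and 2 higher. With library totals alone in place of TMM, Slc3a2, one of the 8, turned direction and Slc7a8, another, lost its call. The lower ones were both heavy chains, all 4 light chains and the brush border carriers Slc6a19 and Slc1a1, and the higher ones were Slc36a2 and Slc1a5. Of all genes tested, 50.9% passed in this comparison, 25.9% higher and 25% lower. The median log2 fold change was -1.44 over the 10 genes and 0.02 over all genes tested. Sick and wild-type values were apart, without overlap, for 9 of the 10 genes, against 43.2% of all genes tested. In whole-kidney RNA, fewer cells of a type and less RNA per cell cannot be told apart.

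**Figure D1:**
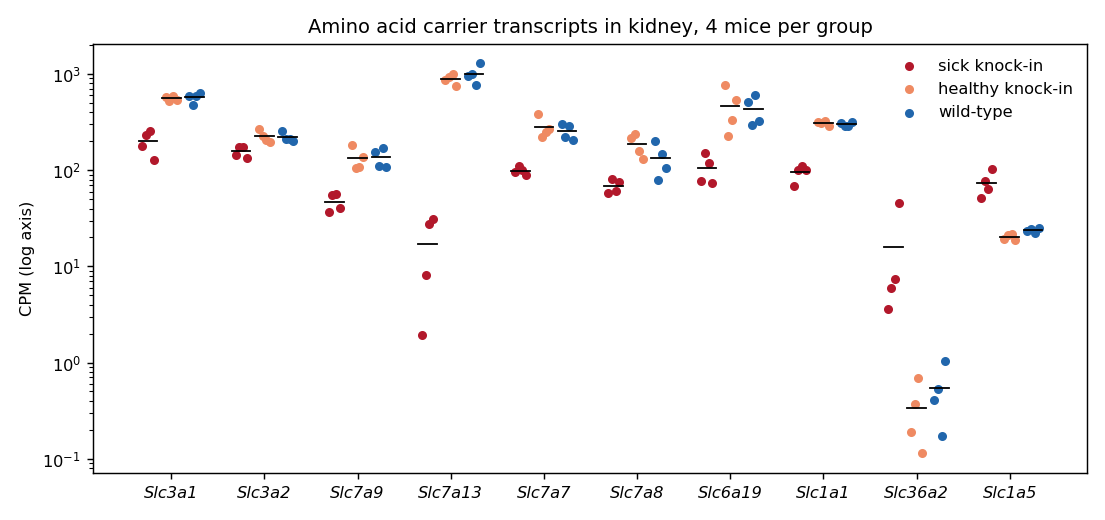
CPM on a log axis for each of the 10 genes in each mouse, with 4 sick knock-in, 4 healthy knock-in and 4 wild-type mice from left to right at each gene; points are mice and horizontal bars are group means. At this scaling the sick mice lie below both other groups for the heavy and light chains, Slc6a19 and Slc1a1, apart from the overlap of Slc7a8 with wild-type mouse 2, and above both for Slc36a2 and Slc1a5.

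Of the heavy chains, Slc3a1 (ENSMUSG00000024131, chromosome 17, 85028376 to 85064236, plus strand, GRCm38) changed more than Slc3a2 (ENSMUSG00000010095, chromosome 19, 8706882 to 8723369, minus strand). Slc3a1 stood at 180.6, 232.9, 254.1 and 128.8 CPM in sick mice 1 to 4, against 587.1, 477.8, 591.5 and 629.4 CPM in wild-type mice 1 to 4. Every sick mouse was below every wild-type mouse, and sick mouse 4 was the lowest of all. The log2 fold change was -1.52 ± 0.195 (SE), a 2.87-fold lower level (adjusted p = 4.65e-05, edgeR's quasi-likelihood test). Slc3a2 stood at 144.3, 175.7, 176.1 and 133.2 CPM in sick mice, against 253.1, 213.6, 211.1 and 201.8 CPM in wild-type mice. The groups did not overlap, but the difference was small, at a log2 fold change of -0.48 ± 0.142 (adjusted p = 0.0128, edgeR's quasi-likelihood test). This call was lost under upper-quartile scaling (-0.36, adjusted p = 0.0537), and with library totals alone the direction turned (0.10, adjusted p = 0.564), so a lower level of Slc3a2 depends on how the libraries are scaled.

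Promoter windows, from 250 bases before to 50 bases after a start, were read from RefSeq (GRCm38.p6), and those of both heavy chains and of the light chain Slc7a7 are shown because Slc3a1 and Slc7a7 held a motif that was searched for and Slc3a2 held none. RefSeq windows were found for 7 of the 10 genes. Capitals mark CAAAGTC, the core of the site of HNF4A, and TGATGNAA, the composite site of ATF4 with C/EBP factors. Each motif was searched on both strands, so that GACTTTG is the core read from the other strand. The windows are chr17:85028097-85028396 (plus strand) for Slc3a1, chr19:8713848-8714147 (minus) for Slc3a2, and chr14:54417895-54418194 (minus) for the most upstream of the 5 starts of Slc7a7.
Slc3a1: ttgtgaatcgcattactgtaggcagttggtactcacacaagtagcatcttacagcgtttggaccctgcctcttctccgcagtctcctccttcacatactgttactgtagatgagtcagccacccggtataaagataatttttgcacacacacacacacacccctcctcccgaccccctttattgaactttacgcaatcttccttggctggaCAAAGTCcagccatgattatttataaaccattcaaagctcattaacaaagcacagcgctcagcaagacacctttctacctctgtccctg
Slc3a2: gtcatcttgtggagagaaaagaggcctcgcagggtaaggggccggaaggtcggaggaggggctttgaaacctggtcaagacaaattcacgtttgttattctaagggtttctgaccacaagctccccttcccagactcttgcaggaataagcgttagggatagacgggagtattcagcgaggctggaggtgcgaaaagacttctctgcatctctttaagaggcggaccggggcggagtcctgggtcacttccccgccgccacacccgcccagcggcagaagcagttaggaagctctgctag
Slc7a7: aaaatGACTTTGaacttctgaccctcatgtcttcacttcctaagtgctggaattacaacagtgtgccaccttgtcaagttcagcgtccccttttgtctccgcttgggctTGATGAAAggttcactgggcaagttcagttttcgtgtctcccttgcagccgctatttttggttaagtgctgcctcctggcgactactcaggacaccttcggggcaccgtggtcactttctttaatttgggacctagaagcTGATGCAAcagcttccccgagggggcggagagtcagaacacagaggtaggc
The Slc3a1 window held 1 HNF4 core. The Slc3a2 window held neither motif, but it lies inside the span of the gene given above, so the upstream end of that span was not searched. The Slc7a7 window shown held 1 HNF4 core and 2 composite sites, and it was the only one of the 5 with the core. The next window downstream held the later of these composite sites again, and the remaining Slc7a7 windows held neither motif. Of all 32851 RefSeq promoter windows, 4.44% held the HNF4 core and 3.97% the composite site. The windows of Slc7a8, Slc7a9, Slc6a19 and Slc1a1 held neither, and that of Slc6a19 likewise lies inside the span of its gene. A match is a description of the letters and does not show that a factor binds there. Of the factors themselves, Hnf4a averaged 405.3 CPM in sick mice, against 1124 CPM in wild-type mice (adjusted p = 0.000212, edgeR's quasi-likelihood test). Atf4 averaged 107 CPM in sick mice, against 88.56 CPM in wild-type mice, which did not pass (adjusted p = 0.32, edgeR's quasi-likelihood test). Of the C/EBP genes, Cebpb averaged 39.03 CPM in sick mice, against 14.88 CPM in wild-type mice, and passed higher (adjusted p = 0.0121, edgeR's quasi-likelihood test). Cebpa averaged 45.11 CPM in sick mice, against 43.13 CPM in wild-type mice. Atf4, Cebpb and Cebpa were named after their values were seen.

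Of the light chains of the brush border, Slc7a13 had by far the larger change. Slc7a13 (ENSMUSG00000041052, chromosome 4, 19818725 to 19842218, plus strand) encodes AGT1, a carrier of aspartate, glutamate and cystine in the last (S3) segment of the proximal tubule, which pairs with rBAT and is known in mice to be higher in males. It stood at 1.945, 8.16, 27.38 and 30.76 CPM in sick mice 1 to 4, against 952.4, 997.6, 774.7 and 1289 CPM in wild-type mice. The sick libraries held 48, 246, 357 and 599 counts of it. The gap between the groups was far wider than either group's spread, although the sick mice differed among themselves by more than the wild-type mice did, with a coefficient of variation of 83% against 21.3%. The log2 fold change was -5.89 ± 0.685, a 59.3-fold lower level (adjusted p = 2.32e-05, edgeR's quasi-likelihood test), and only 0.115% of the genes tested had a more negative one. With limma-voom and quality weights it was -6.66. The other brush border light chain, Slc7a9 (ENSMUSG00000030492, chromosome 7, 35448796 to 35466036, plus strand), encodes b0,+AT, the carrier of cystine and dibasic amino acids. It stood at 36.83, 55.1, 56.06 and 40.77 CPM in sick mice, against 154.1, 110.9, 172.3 and 108.8 CPM in wild-type mice, without overlap. It fell 2.89-fold (log2 fold change -1.53 ± 0.223, adjusted p = 0.000121, edgeR's quasi-likelihood test).

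Both light chains of the basolateral membrane were lower in sick mice. Slc7a7 (ENSMUSG00000000958, chromosome 14, 54369442 to 54417780, minus strand), whose product y+LAT1 exports dibasic amino acids, stood at 95.74, 111.1, 100.3 and 89.35 CPM in sick mice, against 303.3, 219.8, 287.7 and 208.4 CPM in wild-type mice. The sick mice were close together and all below the wild-type mice, and the level was 2.57-fold lower (log2 fold change -1.36 ± 0.187, adjusted p = 8.01e-05, edgeR's quasi-likelihood test). Slc7a8 (ENSMUSG00000022180, chromosome 14, 54722209 to 54781946, minus strand), whose product LAT2 exchanges neutral amino acids, stood at 57.86, 81.87, 61.04 and 74.61 CPM in sick mice, against 202.8, 78.81, 147.8 and 105.4 CPM in wild-type mice. This is the only one of the 10 genes whose groups overlapped, through wild-type mouse 2, which lay below sick mouse 2. The log2 fold change was -0.96 ± 0.275 (adjusted p = 0.0111, edgeR's quasi-likelihood test), and it was -1.15 without wild-type mouse 2 and -0.37 (adjusted p = 0.275) with library totals alone.

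Slc6a19 and Slc1a1, brush border carriers that work without a heavy chain, were lower in sick mice. Slc6a19 (ENSMUSG00000021565, chromosome 13, 73679745 to 73704865, minus strand), whose product B0AT1 takes up neutral amino acids with sodium, stood at 76.45, 151.5, 118.5 and 73.43 CPM in sick mice, against 513.2, 293, 603.2 and 322 CPM in wild-type mice. The highest sick mouse was below the lowest wild-type mouse, and the level was 4.12-fold lower (log2 fold change -2.04 ± 0.387, adjusted p = 0.000808, edgeR's quasi-likelihood test). Slc1a1 (ENSMUSG00000024935, chromosome 19, 28835049 to 28913960, plus strand), whose product EAAC1 takes up glutamate and aspartate, stood at 69.08, 100.5, 111.7 and 99.98 CPM in sick mice, against 312.2, 289.8, 290.1 and 317.7 CPM in wild-type mice. The wild-type mice varied little, with a coefficient of variation of 4.85%. Slc1a1 had the smallest adjusted p of the 10 genes (4.23e-06, edgeR's quasi-likelihood test), at a log2 fold change of -1.67 ± 0.146.

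Of these genes, 4 have exonic bases that lie within the span of a gene on the other strand. No source used here says whether the counting used strand. The partner's span, introns included, covers 601 exonic bases of Slc3a1 (Prepl), 232 of Slc7a7 (Oxa1l), 545 of Slc6a19 (Slc6a19os) and 5475 of Slc1a1 (4430402I18Rik). The counts of those partners were 1905 to 6018 for Prepl, 952 to 2006 for Oxa1l, 1 to 24 for Slc6a19os and 63 to 149 for 4430402I18Rik. The exons of the partners were not compared, so how many of these bases are exonic in both genes is not known. Reads of bases exonic in both cannot be told apart if strand was not used.

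Slc36a2 and Slc1a5 were the carriers that rose. Slc36a2 (ENSMUSG00000020264, chromosome 11, 55158470 to 55185077, minus strand) encodes PAT2, a proton-coupled carrier of glycine and proline, which in mice is also known from the surface of brown fat cells. It stood at 3.646, 5.971, 7.362 and 46.01 CPM in sick mice 1 to 4 (90, 180, 96 and 896 counts), against 0.4042, 0.5301, 0.1732 and 1.043 CPM in wild-type mice (5, 9, 2 and 16 counts). All 4 sick mice were above all wild-type mice, and sick mouse 4 was far above the other 3. The log2 fold change was 4.81 ± 0.874 (adjusted p = 0.000607, edgeR's quasi-likelihood test), a 28-fold higher level, and without sick mouse 4 it was 3.33 (adjusted p = 0.000461). In sick mice 1 to 4 the summed CPM of 4 adipose marker genes was 6.725, 80.14, 88.19 and 439, against 10.91, 2.003, 7.189 and 18.84 in wild-type mice 1 to 4. The brown fat gene Ucp1 stood at 0.1215, 0.2654, 0.5368 and 16.74 CPM in sick mice 1 to 4. The adipose sum was highest in the same mouse as Slc36a2, and lay within the wild-type range in sick mouse 1, the lowest of the sick mice for both. The part of adipose tissue in the rise was not tested. The adipose genes were split from a list of muscle and adipose markers after their values were seen.

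Slc1a5 (ENSMUSG00000001918, chromosome 7, 16781340 to 16798274, plus strand) encodes ASCT2, an exchanger of glutamine and other small neutral amino acids found in many dividing and immune cells. It stood at 50.89, 77.19, 64.57 and 103.6 CPM in sick mice, against 23.12, 24.68, 22.09 and 24.97 CPM in wild-type mice. The wild-type mice lay within a narrow range and every sick mouse was above it. The level was 3.12-fold higher (log2 fold change 1.64 ± 0.184, adjusted p = 1.8e-05, edgeR's quasi-likelihood test). Macrophage markers, 9 of 9 tested, were also higher in sick mice, with a summed level of 1765, 884.9, 917.3 and 1187 CPM in sick mice 1 to 4, against 128, 164.4, 125 and 250.3 CPM in wild-type mice 1 to 4. Sick mouse 1 had the highest macrophage sum and the lowest Slc1a5 of the sick mice. Fibroblast markers, 9 of 9 called higher, likewise summed highest in sick mouse 1, at 5933 CPM, within 2928 to 5933 CPM in sick mice, against 425.3 to 611.5 CPM in wild-type mice. Of 10 cell division markers, 2 were called higher, where 25.9% of all genes tested were. The part of these cells in the rise of Slc1a5 was not tested.

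**Figure D2:**
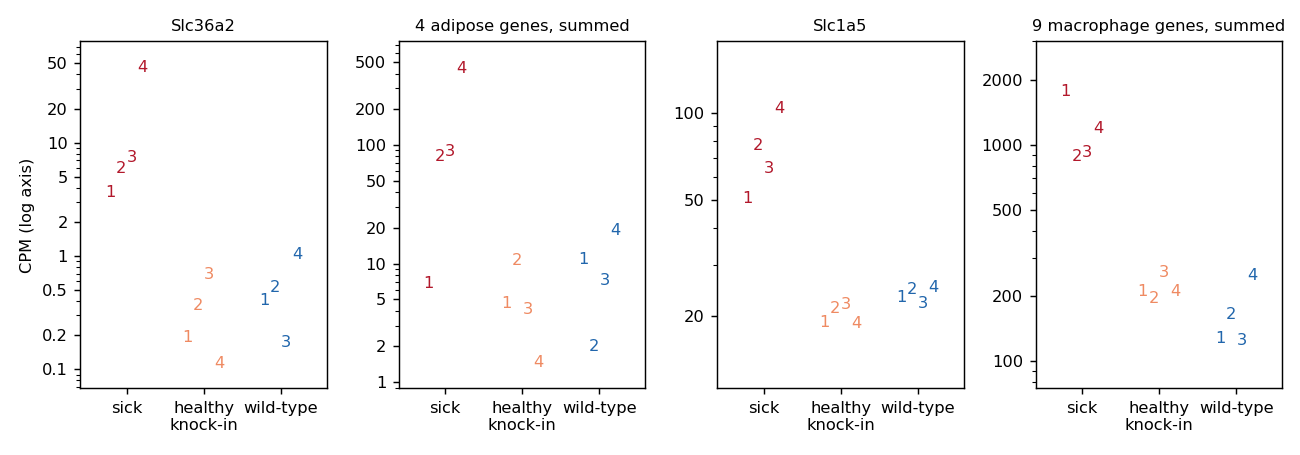
CPM on log axes of Slc36a2, of 4 adipose genes summed, of Slc1a5 and of 9 macrophage genes summed, with the sick knock-in, healthy knock-in and wild-type mice from left to right; each digit is the number of a mouse within its group. Sick mouse 4 is highest for Slc36a2, for the adipose sum and for Slc1a5, while sick mouse 1 is highest for the macrophage sum and lowest of the sick mice for Slc1a5.

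Healthy and wild-type kidneys of this series had the same order of levels. Levels were set per length of exon, taken over all annotated exons of a gene together. That length can exceed the length of the transcript made, so the order between genes is approximate. In wild-type mice the level was highest for Slc7a13 (468.7 CPM per kb), followed by Slc3a1 (251.6), Slc6a19 (86.47), Slc7a7 (76.86), Slc3a2 (62.32), Slc7a9 (51.01), Slc1a1 (36.63), Slc7a8 (26.72), Slc1a5 (5.683) and Slc36a2 (0.1652 CPM per kb). The ranges over the 4 mice overlapped between neighbours from Slc6a19 to Slc7a9 and between Slc1a1 and Slc7a8, and did not overlap at the other steps. In sick mice the order was Slc3a1 (87.67 CPM per kb), Slc3a2 (44.58), Slc7a7 (29.9), Slc6a19 (20.97), Slc1a5 (17.75), Slc7a9 (17.63), Slc7a8 (13.76), Slc1a1 (11.54), Slc7a13 (7.968) and Slc36a2 (4.838 CPM per kb). From Slc7a7 onward each neighbour's range overlapped the next, so this lower order is not resolved by 4 mice. Slc7a13 thus held the top place in wild-type mice. In sick mice it was ninth by its mean, within the part of the order that is not resolved. The summed level of the 10 genes was 717.3 to 999.9 CPM in sick, 2806 to 3613 CPM in healthy knock-in and 2706 to 3302 CPM in wild-type mice. Slc7a13 made up 0.271% to 3.75% of that sum in sick, 24.3% to 33.1% in healthy knock-in and 25% to 40.2% in wild-type mice.

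**Figure D3:**
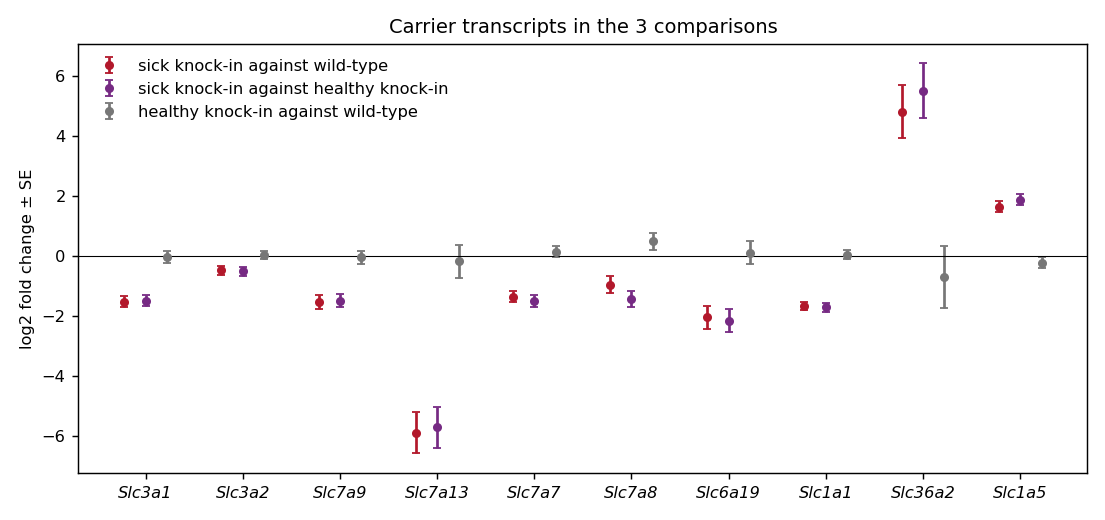
Log2 fold change of each of the 10 genes in sick knock-in against wild-type, sick against healthy and healthy against wild-type mice, with error bars of 1 SE. In the comparisons with sick mice Slc7a13 is the lowest and Slc36a2 the highest, and no gene passed the test between healthy knock-in and wild-type mice.

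Whether a light chain kept its ratio to its heavy chain was asked from the 2 genes' counts within each library, which do not depend on scaling between libraries. Slc7a9 over Slc3a1, both subunits of the cystine carrier, stood per length at 0.173, 0.201, 0.187 and 0.269 in sick mice, against 0.223, 0.197, 0.247 and 0.147 in wild-type mice. The groups overlapped, and the log2 ratio differed by 0.03 (exact permutation test, two-sided, p = 0.886). Slc7a13 over Slc3a1 stood at 0.0114, 0.0372, 0.114 and 0.253 in sick mice, against 1.72, 2.21, 1.39 and 2.17 in wild-type mice. The log2 ratio was lower by 4.95 in the means, with every sick mouse below every wild-type mouse (exact permutation p = 0.0286). The difference was -5.65 without sick mouse 4 and -4.17 without sick mouse 1. Slc7a7 over Slc3a2 stood at 0.706, 0.673, 0.606 and 0.714 in sick mice, against 1.28, 1.1, 1.45 and 1.1 in wild-type mice, again without overlap (log2 difference -0.86, exact permutation p = 0.0286). Slc7a8 over Slc3a2 averaged 0.313 in sick mice and 0.422 in wild-type mice and overlapped (log2 difference -0.39, exact permutation p = 0.257). Against healthy knock-in mice, which averaged 0.579, it did not overlap (log2 difference -0.89, exact permutation p = 0.0286). Slc7a7 over Slc7a8 averaged 2.21 in sick mice and 3.1 in wild-type mice (exact permutation p = 0.0857). Of 18 such tests (6 ratios in 3 comparisons), 7 reached 0.0286, the smallest p that 4 against 4 mice allow, and all 7 had an adjusted p of 0.0735, so none passed 0.05. At least 11 of the 18 would have had to reach the smallest p for any to pass.

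**Figure D4:**
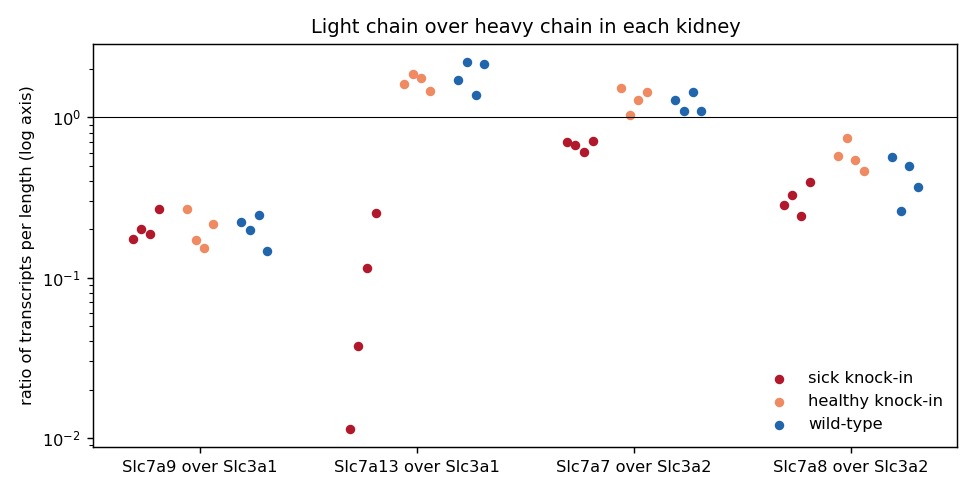
Ratio of light chain to heavy chain, in CPM per kb, within each library, on log axes, for the sick knock-in, healthy knock-in and wild-type mice from left to right; points are mice. Slc7a9 over Slc3a1 overlaps between all groups, while Slc7a13 over Slc3a1 and Slc7a7 over Slc3a2 are lower in all 4 sick mice than in every other mouse.

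Healthy knock-in mice carry the same Gne genotype as the sick ones, and for none of the 10 genes did their difference from wild-type pass the test. By edgeR's quasi-likelihood test 0 of the 10 passed against wild-type mice, where 0.314% of all genes did (49 of 15589). None of the 10 passed by DESeq2 or limma-voom either, or at an unadjusted p below 0.05, as 700 of all genes did. The adjusted p ran from 0.912 to 0.978 (edgeR's quasi-likelihood test), and the median log2 fold change was 0.00182 over the 10 genes and -0.01 over all genes tested. What the test leaves possible differs between the genes. For Slc1a1, at 311.3 ± 16.8 CPM in healthy knock-in mice and 302.4 ± 14.7 CPM in wild-type mice (SD, n = 4 each), the 95% interval of the log2 fold change was -0.27 to 0.35. For Slc3a1 it was -0.45 to 0.38 and for Slc3a2 -0.27 to 0.34. For Slc7a13, at 877.2, 923.5, 993 and 745.5 CPM in healthy knock-in mice, it was -1.38 to 1.01, and for Slc6a19, at 772.3, 226.1, 334.9 and 533.3 CPM in healthy knock-in mice, it was -0.70 to 0.91. Slc7a8 had the largest positive value, 0.48 with an interval of -0.11 to 1.07, at 218.6, 239, 159 and 130.6 CPM in healthy knock-in mice. Slc1a5 was the only gene whose groups did not overlap, at 18.78 to 21.84 CPM in healthy knock-in mice, against 22.09 to 24.97 CPM in wild-type mice, and 3.97% of all genes tested did not overlap in this comparison. Its log2 fold change was -0.23 with an interval of -0.62 to 0.16. Slc36a2 was near the limit of counting in both groups, with 2 to 12 counts per healthy library and 2 to 16 per wild-type library. Skeletal muscle genes were high in the healthy knock-in libraries, with a sum of 147.9 to 241.3 CPM there, against 0.08661 to 1.434 CPM in wild-type mice.

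Sick against healthy knock-in mice, which share their genotype, gave the same 8 genes lower (Slc3a2 with the same dependence on scaling) and 2 higher, where 46.4% of all genes tested passed, 24.5% higher and 21.9% lower. This comparison shares its sick mice with the one against wild-type, so the 2 are not independent. The median log2 fold change was -1.49 over the 10 genes and 0.05 over all genes tested, and sick and healthy knock-in mice overlapped for none of the 10 genes, against 47.2% of all genes that did not overlap. Slc7a13 was 52.3-fold lower in sick than in healthy knock-in mice (log2 fold change -5.71 ± 0.679, adjusted p = 3.59e-05, edgeR's quasi-likelihood test). Slc6a19 was 4.45-fold lower (adjusted p = 0.000683), Slc1a1 3.27-fold lower (adjusted p = 4.74e-06) and Slc7a8 2.71-fold lower (adjusted p = 0.00108, all edgeR's quasi-likelihood test). Slc7a8 differed without overlap here, at 57.86 to 81.87 CPM in sick mice, against 130.6 to 239 CPM in healthy knock-in mice. Slc3a1, Slc7a9 and Slc7a7 were 2.81-fold, 2.82-fold and 2.84-fold lower. Slc3a2 had -0.52 (adjusted p = 0.00965, edgeR's quasi-likelihood test), which turned to 0.06 with library totals alone. Slc1a5 stood at 50.89 to 103.6 CPM in sick mice, against 18.78 to 21.84 CPM in healthy knock-in mice, a log2 fold change of 1.87 ± 0.185 (adjusted p = 1.09e-05, edgeR's quasi-likelihood test). Slc36a2 stood at 3.646 to 46.01 CPM in sick mice, against 0.1135 to 0.6862 CPM in healthy knock-in mice, a log2 fold change of 5.50 ± 0.908 (adjusted p = 0.000369, edgeR's quasi-likelihood test), and 4.02 without sick mouse 4.

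The 10 genes were set beside 36 other tested amino acid carriers of cell membranes. Of these 36, 13 passed higher and 10 lower in sick against wild-type mice, where 25.9% and 25% of all genes tested did. Their median log2 fold change was 0.21. The carriers that rose furthest included Slc7a12, a light chain first described as Asc-2, at 33.91, 65.15, 47.7 and 13.92 CPM in sick mice, against 3.153, 2.179, 1.646 and 3.781 CPM in wild-type mice. The groups did not overlap, and the level was 14.8-fold higher (adjusted p = 8.91e-05, edgeR's quasi-likelihood test). Slc1a3, a glutamate carrier, stood at 2.35, 28.13, 8.589 and 44.32 CPM in sick mice, against 2.345, 1.06, 2.079 and 3.26 CPM in wild-type mice (log2 fold change 3.26, and 2.58 without sick mouse 4). Sick mouse 1 lay within the wild-type range, so these groups overlapped. Slc43a1, a carrier of large neutral amino acids, averaged 10.98 CPM in sick mice, against 1.965 CPM in wild-type mice. The light chains Slc7a5, Slc7a6 and Slc7a11, which also pair with 4F2hc and carry large neutral amino acids, dibasic amino acids and cystine, and the dibasic carrier Slc7a2, which needs no heavy chain, rose 4-fold, 4.42-fold, 3.89-fold and 5.08-fold. Slc7a5 averaged 12.45 CPM in sick mice, against 3.124 CPM in wild-type mice, so these 3 light chains rose while Slc7a7 and Slc7a8 fell. Slc6a20b, a carrier of proline, averaged 33.59 CPM in sick mice, against 245.4 CPM in wild-type mice (adjusted p = 2.36e-06, edgeR's quasi-likelihood test), but it has a near-identical copy, Slc6a20a, at 30.19 CPM in sick mice, against 28.28 CPM in wild-type mice (log2 fold change 0.09, and 0.69 with library totals alone, where it passed with an adjusted p of 0.000789), and how the counting split their reads is uncertain. Slc6a18, a relative of Slc6a19 that carries glycine in the brush border, averaged 478.8 CPM in sick mice, against 677.1 CPM in wild-type mice; its call (adjusted p = 0.0391, edgeR's quasi-likelihood test) was lost in several settings and its direction turned with library totals alone (0.08). Slc16a10, a basolateral carrier of aromatic amino acids, averaged 34.01 CPM in sick mice, against 59.61 CPM in wild-type mice (adjusted p = 0.00425, edgeR's quasi-likelihood test), a call lost with library totals alone (-0.21, adjusted p = 0.323). Slc6a20a, Slc6a18 and Slc16a10 were named after their values were seen. With library totals alone, 21 of the 36 passed higher and 5 lower. Between healthy knock-in and wild-type mice 0 of the 36 passed by edgeR's quasi-likelihood test, DESeq2 or limma-voom. At an unadjusted p below 0.05 there were 2 of the 36, beside 4.49% of all genes tested. In sick against healthy knock-in mice 14 passed higher and 9 lower, where 24.5% and 21.9% of all genes tested did.

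**Figure D5:**
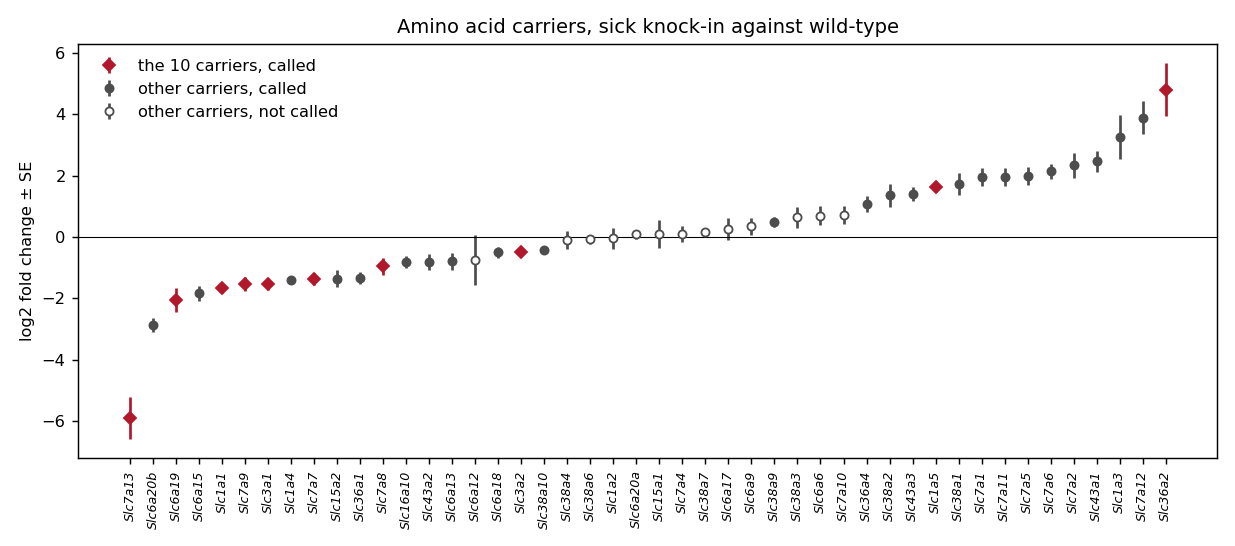
Log2 fold change of the 10 genes and of the 36 other tested amino acid carriers in sick knock-in against wild-type mice, in order of size, with error bars of 1 SE and filled marks past the threshold. Of the other carriers 13 passed higher and 10 lower, beside 25.9% and 25% of all genes tested. Slc7a13 is the lowest of all 46.

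B0AT1 needs a partner protein to reach the membrane, which in the kidney is collectrin. Collectrin, encoded by Tmem27, averaged 401.8 CPM in sick mice, against 1685 CPM in wild-type mice (log2 fold change -2.07 ± 0.234, adjusted p = 1.94e-05, edgeR's quasi-likelihood test), a change close to that of Slc6a19, at -2.04. In this comparison 25% of all genes tested passed lower and 25.9% higher. Of 9 tested accessory and scaffold genes 5 passed lower and 2 higher, with Pdzk1, a brush border scaffold, at -2.37 and Anpep, a peptidase that frees amino acids from peptides, at -2.25. Of 18 genes that handle amino acids inside the tubule cell 13 passed lower and none higher, among them Gatm, of creatine synthesis, at -3.65 and Hpd, of tyrosine breakdown, at -2.84. Hpd moved with 1 library, to -3.48 without sick mouse 2 and -2.10 without wild-type mouse 3. Of 15 genes of the amino acid response, which cells switch on when amino acids run short, 8 passed higher and 2 lower, with Nupr1 at 2.36 and Aldh18a1 at 2.33, and Shmt2 at -2.13. Between healthy knock-in and wild-type mice 0 genes of these 3 lists passed by edgeR's quasi-likelihood test or DESeq2, and 1 of the amino acid response passed by limma-voom and at an unadjusted p below 0.05.

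Markers of the proximal tubule itself moved with the 8 genes that fell. All 13 markers of its first segments (S1 and S2) and 11 of 13 of its S3 segment passed lower in sick against wild-type mice, with median log2 fold changes of -2.77 and -2.28. Of all genes tested, 25% passed lower and 25.9% higher. The S3 markers summed to 2291 to 4892 CPM in sick, 14530 to 17580 CPM in healthy knock-in and 14320 to 20050 CPM in wild-type mice. The median of the 13 male-biased proximal tubule genes, all lower, was -4.60, beside -5.89 for Slc7a13. They summed to 763.9 to 3239 CPM in sick mice, against 35950, 15300, 34400 and 44820 CPM in wild-type mice 1 to 4. Kap, one of these genes and named after its values were seen, stood at 25740, 0, 24610 and 29300 CPM in wild-type mice 1 to 4. All 14 markers of injured tubule passed higher, with a summed level of 10630 to 17650 CPM in sick mice, against 919.9 to 1414 CPM in wild-type mice. Of the markers of later segments, 3 of 6 for the thick limb and 4 of 6 for the distal tubule passed lower, and of 10 collecting duct markers 2 passed higher and 1 lower. The part of these cells in the members' changes was not tested.

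The genes whose pattern over the 12 libraries was most like that of a member were found by the root mean square difference of log2 CPM, each gene centred on its own mean, among 12984 genes. For Slc7a13 these were Slc22a28 (0.511), Akr1c14 (0.527) and C8a (0.537), where the median over all candidates was 3.19. Slc22a28, an organic ion carrier of the Slc22 family, averaged 2.785 CPM in sick mice, 114.1 CPM in healthy knock-in mice and 130.6 CPM in wild-type mice. For Slc6a19 they were Acox3 (0.353), Dpf3 (0.362) and Dhtkd1 (0.372), with a median of 1.16. For Slc7a7 they included Papss2 (0.132) and its fellow light chain Slc7a9 (0.161), with a median of 0.787. For Slc3a2 they were Thtpa (0.108), Arhgef16 (0.113) and Prkce (0.116), with a median of 0.477. Between the members themselves the closest pair was Slc7a7 with Slc7a9. Slc3a1 was 0.253 from Slc1a1. These are descriptions of 12 libraries that share 3 groups.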

How the data were processed

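Total kidney RNA was extracted with a miRvana kit and treated with DNase, and libraries were made with a Trueseq kit, per the labels' protocols. The submitters' processing notes name the build GRCm38, TopHat2 2.0.11, Trim Galore 0.3.7, DESeq2 1.12.4 and Cufflinks. No source used here gives the counting program, annotation release or strandedness. The deposited table holds raw counts per Ensembl gene for 12 libraries, per the file headers.

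Groups came from the labels. Counts were filtered with filterByExpr by group, scaled by TMM and fitted with edgeR 4.0.16 in R 4.3.3, with 1 mean per group over all 12 libraries. P-values were adjusted by Benjamini-Hochberg over 15589 genes. All 10 members passed the filter. The SE was the size of the log2 fold change over the root of F, and CPM used effective library sizes. Subunit ratios, with 0.5 added to each count, were compared by exact two-sided permutation over mice, adjusted over 18 tests. Exon lengths came from GENCODE M21 and promoters from RefSeq GRCm38.p6. The fits were also run on simulated data in which few genes changed, as many up as down, and the groups needed no different scaling. That simulation therefore cannot show how the calls depend on scaling in these data.

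The members and lists were chosen with earlier results of these data known. All 10 members were named, the 8 called other carriers with the largest log2 fold changes and at least 1 CPM, up to 3 called genes of other lists and Tmem27. For 4 members the 3 most alike genes were named. A few genes named by this rule are not reported here. Alternatives were scaling by library totals alone, upper quartiles or DESeq2 size factors, a filter of 1 CPM in 4 libraries or none, DESeq2 1.42.0, limma-voom (limma 3.58.1), the 8 libraries alone, a replicate block, 1 count added to ratios and leaving out each library.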

Additional observations from a re-analysis of the deposited data

Results flagged for a closer look

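Slc36a2 in sick mouse 4 stood at 46.01 CPM, far from 3.646, 5.971 and 7.362 CPM in the other sick mice. Chance flags about 1 in 20 groups of 4, and this was the only flag among the 48 groups examined. Without that mouse Slc36a2 stayed higher in sick than in wild-type mice, at a log2 fold change of 3.33 (adjusted p = 0.000461, edgeR's quasi-likelihood test).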

How the results depend on the processing

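The 10 genes in 3 comparisons gave 30 results and 659 values under alternatives, of which 639 kept their direction and side of the threshold and 20 did not. With library totals alone the median gene shifted by 0.59 on the log2 scale in sick against wild-type and by 0.58 in sick against healthy knock-in mice, and 84% and 85.7% of the called genes were then higher, against 50.8% and 52.7%. Under that setting Slc3a2 turned to 0.10 against wild-type and 0.059 against healthy knock-in mice. Against wild-type mice Slc7a8 lost its call at -0.37 and Slc16a10 at -0.21, Slc6a18 turned to 0.083 and Slc6a20a passed at 0.69. The other carriers called against wild-type became 21 higher and 5 lower, and those lower against healthy knock-in mice became 4. Upper-quartile scaling made 60% and 61.7% of calls higher. In healthy against wild-type mice limma-voom turned Slc3a2 to -0.031, Slc7a7 to -0.036 and Slc6a19 to -0.29, and leaving out wild-type mouse 2 and sick mouse 4 together, chosen after seeing the data, turned Slc6a19 to -0.039; none of these passed. Genes called there were 81 with DESeq2 and 86 with limma-voom, against 49. The cause was not tested.

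Leaving out each library in turn, members called stayed at 8 lower and 2 higher in both comparisons with sick mice and at 0 in the other. Called genes ranged from 6815 to 8377 in sick against wild-type, from 6150 to 8512 in sick against healthy knock-in and from 42 to 54 in healthy knock-in against wild-type mice. Other carriers called ranged from 12 to 15 higher and 7 to 10 lower against wild-type, from 13 to 15 higher and 7 to 12 lower against healthy knock-in, and stayed at 0 in healthy against wild-type mice; the subunit ratios past the threshold were 0 each time, in a design that can hardly give a call, so this says nothing of stability. The log2 ratio of Slc7a13 over Slc3a1 ranged from -5.65 to -4.17 in sick against wild-type and from -5.51 to -4.03 in sick against healthy knock-in mice, and that of Slc7a13 over Slc7a9 from -5.55 to -4.28 and from -5.43 to -4.16, each lowest without sick mouse 4 and highest without sick mouse 1. In healthy against wild-type mice the log2 fold change ranged from -0.11 to 0.017 for Slc3a1, -0.057 to 0.11 for Slc3a2, -0.25 to 0.35 for Slc6a19, -0.047 to 0.25 for Slc7a7 and -0.22 to 0.093 for Slc7a9. The log2 ratio of Slc7a9 over Slc3a1 ranged from -0.114 to 0.137 in sick against wild-type, -0.167 to 0.106 in healthy against wild-type and -0.0783 to 0.201 in sick against healthy knock-in mice. That of Slc7a13 over Slc7a9 ranged from -0.358 to 0.108 in healthy against wild-type mice and that of Slc7a7 over Slc7a8 from -0.302 to 0.0829 in sick against healthy knock-in mice.

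Deviations of mice of the same number from their group means correlated at -0.26 to 0.243 over the genes tested. In the 3 comparisons 2, 2 and 0 of 4 mice correlated best with their own number. With 4 mice per group this cannot settle whether the numbers pair the mice. With the replicate block 7480, 44 and 6809 genes were called in sick against wild-type, healthy against wild-type and sick against healthy knock-in mice, and no call of a member changed; Slc36a2 against healthy knock-in mice was 4.84 with the block, and 4.78 with limma-voom, against 5.50. Depth limits Slc36a2 most, at 2 to 16 counts per library outside the sick mice.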
